A study of Mus musculus with 6 samples.

Results

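The IgG control precipitate was compared with input RNA from freshly isolated satellite cells (fiSCs), the stem cells of mouse skeletal muscle. Its libraries are 4 of the 6 in the series, chosen by their labels: 2 labelled IgG and 2 labelled Input, with 1 value for each of 55376 genes. All cells came from C57BL/6 mice aged 3 months, and the study's mice were male. The IgG libraries held RNA recovered with an anti-IgG antibody, the Input libraries had no antibody, and the other 2 libraries (CPEB1 IP) came from precipitation with an antibody to CPEB1, a protein that binds mRNAs and controls their translation. According to the methods, lysate was cleared with Protein A beads before the antibody was added, and the RNA that stayed on washed beads was amplified by the SMART-Seq2 method. The study's reporting summary describes its RNA-seq replicates as biological. The labels do not say whether IgG and Input replicates of a number shared an isolation, and p-values measure only the spread between these libraries. IgG counts and Input counts were deposited in separate tables, and any difference in how the tables were made cannot be told apart from the difference between the groups.

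RNA immunoprecipitation recovers RNA together with a protein that an antibody holds on beads. A nonspecific IgG has no intended target, so what it recovers is the background against which a specific antibody is read. Input RNA is the pool from which both start.

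Counts on genes were 1284716 and 1359052 in IgG and 3270067 and 3314547 in Input. They made up 39.5% and 39.1% of the library total behind the authors' FPKM in IgG, against 71.1% and 79.8% in Input. Although the IgG libraries were the shallower ones, they touched more genes, with a count on 32381 and 32328 genes against 21150 and 20158. Levels are given as counts per 1 000 000 counts on genes (CPM), and log2 fold changes are IgG over Input with their standard errors. The labelled cell type was visible in Input, where Pax7, the transcription factor that marks satellite cells, lay at 328 and 338 CPM. Cpeb1 mRNA lay at 92.6 and 96.4 CPM in IgG and 97.2 and 78.7 CPM in Input, a log2 fold change of 0.04 ± 0.19 that was not called (edgeR adjusted p = 0.875).

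The highest gene in IgG was a repeat. Gm10800, a gene model on chromosome 2, lay at 38162 and 43305 CPM in IgG and 7.95 and 23.8 CPM in Input. It belongs to 13 gene models that share at least 5% of their 16-base words with it, here called satellite-like genes, a set defined after its values were seen. Satellite DNA is the tandem repeat of centromeres, and the major satellite of the mouse is AT-rich with a unit of 234 bases. The name has nothing to do with satellite cells, and the genes were not aligned to a satellite reference here. The first 234 bases of 3 transcripts (GENCODE M21) are shown because the repeat is what these genes have in common, with capitals for a stretch of 16 bases that all 13 hold on one strand or the other. The genes lie at chr9:3000282-3038313 on the minus strand (Gm26870), chr2:98666547-98667301 on the minus strand (Gm10800) and chr14:19415857-19418930 on the minus strand (Gm21738) of GRCm38.
Gm26870: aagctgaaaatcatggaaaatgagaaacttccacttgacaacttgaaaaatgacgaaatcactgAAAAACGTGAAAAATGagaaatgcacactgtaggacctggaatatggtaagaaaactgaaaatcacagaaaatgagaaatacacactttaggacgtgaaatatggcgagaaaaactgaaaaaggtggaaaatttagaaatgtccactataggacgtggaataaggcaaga
Gm10800: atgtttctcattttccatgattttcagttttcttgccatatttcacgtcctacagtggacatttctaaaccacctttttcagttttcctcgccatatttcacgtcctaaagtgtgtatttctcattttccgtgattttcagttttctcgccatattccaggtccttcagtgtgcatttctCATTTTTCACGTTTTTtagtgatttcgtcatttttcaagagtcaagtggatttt
Gm21738: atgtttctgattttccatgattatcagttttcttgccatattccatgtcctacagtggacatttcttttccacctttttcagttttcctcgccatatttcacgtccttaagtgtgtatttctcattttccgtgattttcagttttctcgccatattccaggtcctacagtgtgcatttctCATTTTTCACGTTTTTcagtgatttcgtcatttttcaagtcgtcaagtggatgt

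The best match of a Gm26870 transcript to itself was at a shift of 234 bases, where 95.9% of its bases agreed, and 64.4% of its bases were A or T. Most other transcripts of the set had their best match at the same shift, with identities between 61.7% and 81.5%. The exceptions were Gm10800, Gm10801 and Gm11168, with best shifts of 225, 231 and 237 bases.

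Together the 13 genes took 71771 and 85590 counts in IgG, or 5.59% and 6.30% of the counts on genes (exact binomial 95% intervals 5.55 to 5.63 and 6.26 to 6.34). In Input they took 32 and 101 counts, or 0.000979% and 0.00305% (0.000669 to 0.00138 and 0.00248 to 0.00370). The CPEB1 IP libraries lay between, at 1.93% and 1.23%. For each of the 13 genes both IgG libraries were above both CPEB1 IP libraries, and those were above both Input libraries. Intervals of shares cover counting error only.

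Gm21738 lay at 7550 and 8467 CPM in IgG and 0.917 and 3.32 CPM in Input, and Gm10801 at 7123 and 7491 CPM in IgG and 0.306 and 3.02 CPM in Input. Gm26870 had 944 and 967 counts in IgG and none in Input, which makes it at least 794-fold higher against a floor of 3 counts in each Input library. By the same floor Gm10719 was at least 250.0-fold, Gm11168 at least 238-fold, Gm10715 at least 64.3-fold and Gm10720 at least 54.8-fold higher. These were the 5 highest genes in IgG among those without an Input count.

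All 13 passed the test, but 7 of them had no Input count and entered it through IgG alone, so that count is a description. The median log2 fold change over the set was 11.26, or 9.63 with those 7 at their bound. For Gm10800 the test gave 11.26 ± 0.24 (SE, edgeR adjusted p = 1.4e-32). The genes share stretches of sequence, so how counts divide among them is uncertain. The handling of reads that map to several places is not given in the sources used here. All 10 of the largest rises at 20 CPM or more were satellite-like genes.

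**Figure D1:**
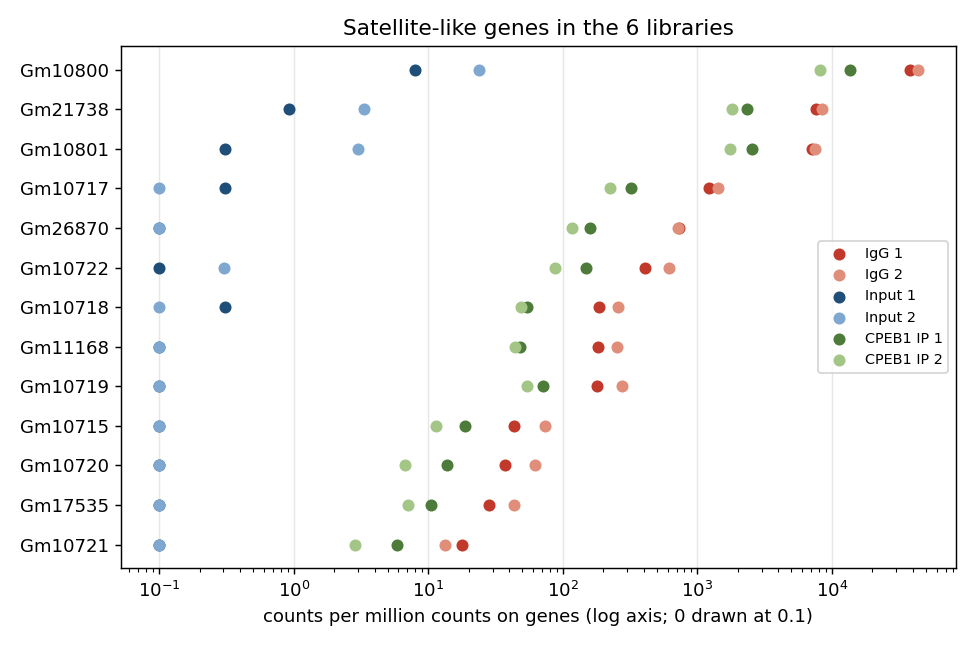
Level of the 13 satellite-like genes in the 6 libraries, in counts per 1 000 000 counts on genes on a log axis, 1 point a library and 0 drawn at 0.1. Gm10800 reached 38162 and 43305 CPM in IgG and 7.95 and 23.8 CPM in Input, and for every gene the CPEB1 IP points lie between Input and IgG.

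A second feature of IgG was a thin, even cover of genes that Input did not show. Of the 32006 genes without a count in either Input library, 7076 had a count in both IgG libraries, 2980 of them protein coding. In the other direction, 309 of the 16716 genes without an IgG count had a count in both Input libraries. With at least 10 counts in each library the numbers were 101 and 2.

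On the 17050 autosomal genes with no Input count and at least 500 bases of exon, IgG held 0.745 and 0.786 counts per 1000 bases of exon. CPEB1 IP held 0.238 and 0.443, but those libraries were deeper, with 2564323 and 4941653 counts on genes. Scaled to 1 000 000 counts on genes, the density was 0.580 and 0.578 in IgG and 0.0929 and 0.0897 in CPEB1 IP. Between autosomes the unscaled density ran from 0.648 to 0.840 in the first IgG library and from 0.680 to 0.940 in the second. On chromosome X it was 41.6% and 38.9% of the autosomal value, and on chromosome Y 13.4% and 12.1%.

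The density was also similar across kinds of gene. Protein-coding genes held 0.762 and 0.812 counts per 1000 bases, lincRNA genes 0.803 and 0.804 and processed pseudogenes 0.678 and 0.752. Genes inside an intron of a protein-coding gene on its strand held 0.705 and 0.790, and genes outside any protein-coding gene 0.761 and 0.798. Genes that overlap an exon of a protein-coding gene held less, 0.412 and 0.471. At this density all exons together would take 7.62% and 7.60% of the IgG counts on genes. These genes were chosen for having no Input count, and the source of their IgG counts was not tested.

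**Figure D2:**
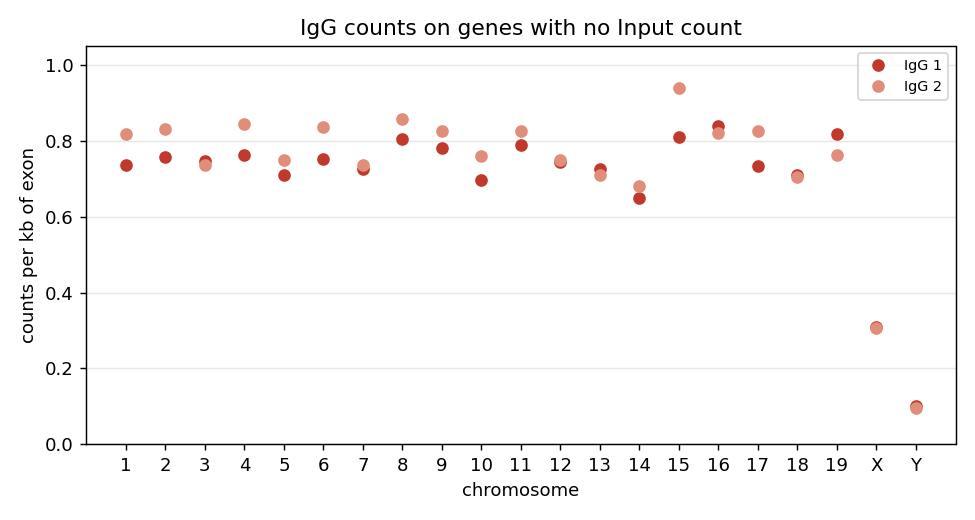
Counts per 1000 bases of exon on genes with no Input count, by chromosome, 1 point a library. In IgG the autosomes lie between 0.648 and 0.940, and chromosomes X and Y lie below every autosome.

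Odorant and pheromone receptors, which sensory neurons of the nose use to detect chemicals, show this cover at single genes. Summed over 1449 receptor genes, IgG held 3203 and 3305 CPM, Input 51.1 and 51.0 CPM and CPEB1 IP 565 and 527 CPM. Both IgG libraries were far above the other libraries. Vmn2r76 had 33 and 35 counts in IgG and none in Input, at least 28.2-fold higher against the same floor. Olfr1033, which had Input counts, lay at 18.7 and 25.8 CPM in IgG and 3.98 and 8.45 CPM in Input, and DESeq2 did not call it (adjusted p = 0.116).

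Across the transcriptome, 12980 genes passed a filter on low counts. By edgeR, 2772 of them (21.4%) were called higher in IgG and 2515 (19.4%) lower at an adjusted p under 0.05, and 7693 were not called. The counts called in each list below are to be read beside these shares. The median log2 fold change over all tested genes was 0.03. It was 0.14 with plain library sizes, so changes near that size depend on the scaling. Of the genes called higher, 441 (15.9%) had at most 2 times the even density in both IgG libraries, against 63 (2.50%) of those called lower.

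Low genes lay mostly above 0. Among the 2596 tested genes lowest in mean level, 47.5% were called higher and 2.16% lower, against 17.4% and 37.5% among the 2596 highest. Of all tested genes, 307 had no Input count, passed the filter through IgG alone and were all called higher. Of the 89 tested receptor genes 88 were called higher, but 78 had no Input count, and 46 of the 89 had at most 2 times the even density. Of these 89, DESeq2 called 83 higher, and 12 were called higher with the even density subtracted. Fewer than the 88 were called when either IgG library was left out.

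**Figure D3:**
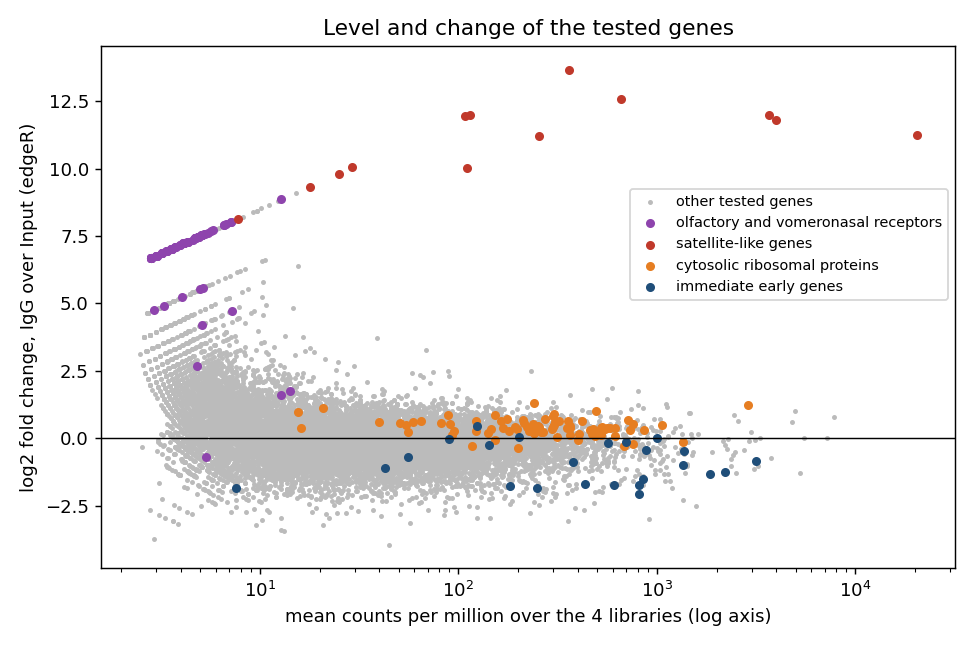
Log2 fold change of IgG over Input against mean CPM of the 4 libraries (log axis) for 12980 tested genes. The satellite-like genes lie apart at the top, most ribosomal protein genes lie above 0 and most immediate early genes below it. The straight rows at the left are genes with 0 or few Input counts, whose fitted change depends on the prior count.

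Neuronal synapse genes, many of them very long, were counted in the same way. Of 26 tested members 21 were called higher and none lower, 8 of the 26 without an Input count, and 15 of the 26 had at most 2 times the even density. Csmd1 lay at 35.03 and 33.1 CPM in IgG and 8.56 and 10.9 CPM in Input, and Dlgap1, a postsynaptic scaffold, at 32.7 and 29.4 CPM in IgG and 6.42 and 5.73 CPM in Input. Without IgG replicate 1 the number called higher was 11, and without IgG replicate 2 it was 13. Ptprd, the most abundant of the list, was not called, with 99.6 and 81.7 CPM in IgG and 84.1 and 112 CPM in Input and a log2 fold change of -0.18 ± 0.20 (edgeR adjusted p = 0.494).

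By class, protein-coding genes took 91.0% and 91.1% of the IgG counts and 94.7% and 94.9% of the Input counts. Most satellite-like genes are annotated as protein coding. The other protein-coding genes took 85.5% and 84.9% of the IgG counts, with satellite-like counts still part of the total. Long intergenic RNA (lincRNA) genes took 2.26% and 2.15% in IgG against 1.16% and 0.891% in Input. Antisense RNAs took 0.651% and 0.625% against 0.300% and 0.212%. TEC genes, loci with transcript evidence that still await experimental testing, took 0.997% and 1.01% against 0.5004% and 0.325%. In each of these 3 noncoding classes both IgG libraries lay above both Input libraries. With 2 libraries a side an exact permutation test cannot go below 0.333, so shares were not tested.

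Among tested genes, 185 of 372 TEC genes were called higher and 2 lower, with a median log2 fold change of 1.12 against 0.03 over all tested genes (21.4% higher, 19.4% lower). The median was 1.001 over 173 antisense genes (75 higher, 1 lower) and 0.96 over 186 lincRNA genes (89 higher, 7 lower). Of these, 11 TEC, 3 antisense and 17 lincRNA genes had no Input count and entered the test through IgG alone. All of them were called higher, so the counts and medians are descriptions. The 3 classes were low in level, with median Input levels of 4.26 (TEC), 4.57 (antisense) and 4.78 CPM (lincRNA). Among the 2310 protein-coding genes lowest in mean level, 44.7% were called higher and 3.25% lower, with a median of 1.07. The shares called higher were close to that, at 49.7% (TEC), 43.4% (antisense) and 47.8% (lincRNA). Whether these classes differ from other genes of the same level was not tested. Without 1 library the counts called higher went down to 53 TEC genes (without Input replicate 2), 24 antisense genes (without Input replicate 2) and 33 lincRNA genes (without IgG replicate 2). DESeq2 called 25, 11 and 33 of them higher.

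Gm40309 and Gm47585, among the most abundant TEC genes, had smaller changes than the class median. Gm40309 lay at 204 and 196 CPM in IgG and 168 and 75.7 CPM in Input, with a log2 fold change of 0.65 ± 0.21 (edgeR adjusted p = 0.0110). The change was 0.20 without Input replicate 2 and 0.62 without IgG replicate 1, with edgeR adjusted p of 0.336 and 0.0652, against 1.33 without Input replicate 1. It was not called without the filter on low counts (0.39) or by DESeq2 (0.53) either. Gm47585 lay at 210.2 and 208 CPM in IgG and 230.3 and 91.1 CPM in Input, where the Input libraries lay on both sides of the IgG ones, and it was called only without Input replicate 1 (1.13) and with a replicate block (0.45). Among sense intronic RNAs Gm45570 lay at 283 and 258 CPM in IgG and 104 and 46.5 CPM in Input, with a log2 fold change of 1.79 ± 0.21. The 544 tested noncoding genes that lie within an intron of a tested protein-coding gene had a median of 0.96, and their 426 hosts one of 0.15. Of the nested genes 439 lay above their host, 325 of 400 on the host's strand and 114 of 144 on the other. Strandedness of the counting is not given in the sources used here, so counts of a nested or antisense gene and of unspliced host RNA cannot be told apart.

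**Figure D4:**
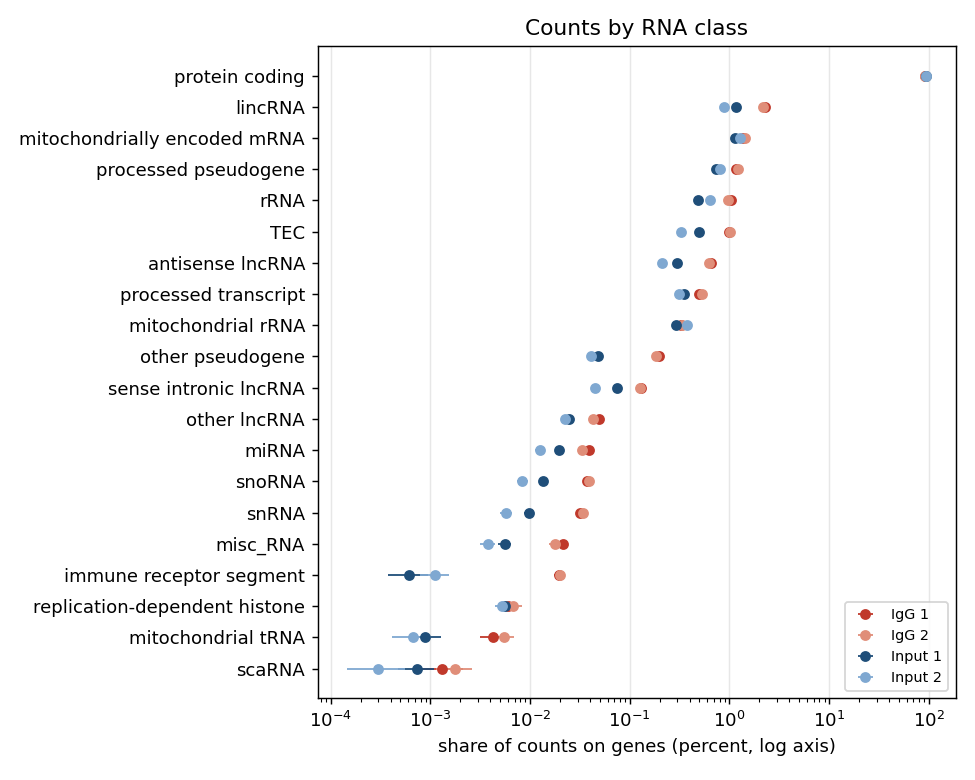
Share of counts on genes by RNA class in IgG and Input (percent, log axis), with exact 95% binomial intervals as bars. For lincRNA the IgG points lie at 2.26% and 2.15% and the Input points at 1.16% and 0.891%.

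Long noncoding RNAs of the nucleus varied among themselves. Neat1, the scaffold of paraspeckles, lay at 1690 and 1479 CPM in IgG and 825 and 439.6 CPM in Input, and Kcnq1ot1, an imprinted antisense RNA that acts at its own locus, at 958 and 928 CPM in IgG and 308 and 193 CPM in Input. Both rose, Neat1 by 1.27 ± 0.17 and Kcnq1ot1 by 1.85 ± 0.16 (edgeR adjusted p = 1.0e-07 and 3.6e-12). Malat1, an RNA of nuclear speckles, lay at 3050 and 3284 CPM in IgG and 2246 and 1685 CPM in Input, with a log2 fold change of 0.63 ± 0.13. In all 3 the groups did not overlap. Without IgG replicate 2 the change of Malat1 was 0.55 and not called (edgeR adjusted p = 0.0861).

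Meg3, an imprinted RNA, lay at 1359 and 1431 CPM in IgG, between its Input values of 2020 and 949.8 CPM, and was not called. Its direction depends on which Input library is used. The log2 fold change was 0.49 without Input replicate 1 and -0.59 without Input replicate 2, and each of these was called (edgeR adjusted p = 5.3e-08 and 2.1e-13). Rian, from the same imprinted cluster, lay at 214 and 216 CPM in IgG and 309 and 293 CPM in Input and fell by 0.54 ± 0.15 on the log2 scale (edgeR adjusted p = 0.00381). The change of Rian kept its size but was not called without IgG replicate 1 or without IgG replicate 2 (edgeR adjusted p = 0.118 and 0.0940). Of the 8 tested members of this list 4 were called higher and 1 lower, and the fourth rise, Miat, had no Input count. Without IgG replicate 2 the counts were 2 higher and 0 lower. Host genes of small nucleolar RNAs were called higher at 8 of 13 (4 with DESeq2) and lower at none. Snhg1 lay at 161 and 168 CPM in IgG and 55.7 and 56.4 CPM in Input and Gas5 at 636 and 769 CPM in IgG and 506 and 424 CPM in Input. Gas5 was not called without IgG replicate 2 (0.37), by DESeq2 (0.40) or without the filter on low counts (0.27).

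Ribosomal RNA was a larger part of IgG as well. CT010467.1, annotated as rRNA at chr17:39846353-39848827, lay at 10351 and 9630 CPM in IgG and 4784 and 6345 CPM in Input. It was the only tested gene of the rRNA class. Its neighbour Gm26917, which is not in that class, lay at 7096 and 6349 CPM in IgG and 3208 and 3165 CPM in Input. Their log2 fold changes were 0.78 ± 0.12 and 1.02 ± 0.12 (edgeR adjusted p = 2.9e-06 and 9.1e-09). For CT010467.1 DESeq2 gave an adjusted p of 0.0596.

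Of 11 tested mRNAs encoded by mitochondria, 2 (18.2%) were called higher and 3 (27.3%) lower, beside 21.4% and 19.4% of all tested genes. mt-Co1, a subunit of cytochrome oxidase, lay at 5984 and 5875 CPM in IgG and 3425 and 3951 CPM in Input and rose by 0.62 ± 0.12. mt-Cytb, of complex III, lay at 2028 and 2196 CPM in IgG and 2882 and 2856 CPM in Input and had a log2 fold change of -0.50 ± 0.12 (edgeR adjusted p = 0.00102). Without IgG replicate 1, without IgG replicate 2 and with the even density subtracted no mRNA of this class was called lower, and for mt-Cytb the adjusted p was 0.174, 0.0773 and 0.0970 by edgeR. The call of mt-Co1 was lost without IgG replicate 2 (edgeR adjusted p = 0.0542). Without Input replicate 2 the counts were 5 higher and 3 lower. The large mitochondrial rRNA mt-Rnr2 lay at 3076 and 3119 CPM in IgG and 2766 and 3498 CPM in Input, where the Input libraries enclosed the IgG ones. It was called lower without Input replicate 1 (-0.24) and without the filter on low counts (-0.35).

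Abundant messenger RNAs were lower more often than higher. Among 3971 protein-coding genes with a mean of at least 50 CPM, 615 (15.5%) were called higher and 1373 (34.6%) lower. The shares over all tested genes were 21.4% and 19.4%. The median log2 fold change of the abundant genes was -0.19. With the even density subtracted from IgG their counts were close, at 876 higher and 957 lower. Without IgG replicate 1 and without IgG replicate 2 the higher ones numbered 327 and 299. The most abundant did not all move. Gpx3, a secreted glutathione peroxidase, lay at 7237 and 7540 CPM in IgG and 7176 and 6853 CPM in Input, and Sdc4, a proteoglycan of satellite cells, at 5688 and 5614 CPM in IgG and 5212 and 5605 CPM in Input. Hspa5, the chaperone of the endoplasmic reticulum, lay at 3135 and 3224 CPM in IgG and 7185 and 7495 CPM in Input, a log2 fold change of -1.27 ± 0.12 (edgeR adjusted p = 4.2e-11). Actb lay at 1578 and 1609 CPM in IgG and 2884 and 3339 CPM in Input and Errfi1, a feedback inhibitor of EGF receptor signalling, at 2917 and 2939 CPM in IgG and 4380 and 4836 CPM in Input. For these 3 both IgG libraries lay below both Input libraries. Gapdh, a glycolytic enzyme, lay at 27.2 and 34.6 CPM in IgG and 59.6 and 57.3 CPM in Input, with a log2 fold change of -0.97 ± 0.25, which was not called without IgG replicate 1 (-0.82, edgeR adjusted p = 0.0592). H19, an imprinted RNA, lay at 8.56 and 6.62 CPM in IgG and 12.2 and 17.5 CPM in Input and was called only without Input replicate 1 (edgeR adjusted p = 0.0672 with all 4 libraries and 0.0390 without it).

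The largest rises among genes with at least 50 CPM in Input, picked out after values were seen, included Hmox1, the enzyme that breaks down haem, at 388 and 411 CPM in IgG and 59.6 and 74.2 CPM in Input. Akap13, an anchoring protein of protein kinase A, lay at 774 and 717 CPM in IgG and 245 and 161 CPM in Input, and Atp2b1, a calcium pump, at 1229 and 1269 CPM in IgG and 383 and 327 CPM in Input. In each the groups did not overlap.

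Cytosolic ribosomal protein genes, which encode the ribosome's own proteins, were called higher at 44 of 83 tested members and lower at none, with a median of 0.40. Their summed level was 34388 and 35271 CPM in IgG and 23720 and 26310 CPM in Input. Rplp0, the stalk protein P0, lay at 4159 and 4093 CPM in IgG and 1692 and 1632 CPM in Input, a log2 fold change of 1.25 ± 0.12 (edgeR adjusted p = 1.1e-10). Rpl13 lay at 1272 and 1241 CPM in IgG and 849 and 863 CPM in Input and was not called when either IgG library was left out or without the filter on low counts, while Rpl4 lay at 1354 and 1296 CPM in IgG and 1387 and 1398 CPM in Input and was called, as lower, only without that filter. Without IgG replicate 2 the number called higher was 11, and without IgG replicate 1 it was 18. DESeq2 called 14 higher and 1 lower.

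Other genes of protein synthesis and turnover gave other counts, given here beside the 21.4% higher and 19.4% lower of all tested genes. Translation factors were called higher at 9 of 70 (12.9%) and lower at 10 (14.3%). These counts were 7 and 3 without IgG replicate 1, 4 and 3 without IgG replicate 2, 11 and 18 without Input replicate 1, 14 and 9 without Input replicate 2, and 17 and 3 with the even density subtracted. Mitochondrial ribosomal proteins were called higher at 10 of 76 (13.2%) and lower at 6 (7.89%). Here the counts were 5 and 1 without IgG replicate 1, 4 and 4 without IgG replicate 2, 8 and 3 without Input replicate 2, 1 and 1 with DESeq2, and 12 and 1 with the even density subtracted. Eef1a1, the elongation factor that brings aminoacyl-tRNA to the ribosome, lay at 2938 and 2842 CPM in IgG and 2739 and 3190 CPM in Input, and Eef2, the translocase, at 1322 and 1253 CPM in IgG and 1688 and 1808 CPM in Input. Eef1a1 was called, as lower, only without Input replicate 1 (-0.21) and without the filter on low counts (-0.37). Eef2 fell by 0.50 ± 0.13 on the log2 scale, a call lost when either IgG library was left out and with the even density subtracted. Among protein-coding genes with a mean of at least 50 CPM, 34.6% were called lower. Proteasome subunits, with a median Input level of 141 CPM, were called lower at 9 of 37 (24.3%) and higher at 1. Without IgG replicate 1 and without IgG replicate 2 the lower ones numbered 3 and 2.

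Nuclear-encoded subunits of oxidative phosphorylation were called lower at 26 of 80 (32.5%) and higher at 4 (5%), beside 19.4% and 21.4% of all tested genes. Their median log2 fold change was -0.34 and their median Input level 88.8 CPM. Among protein-coding genes with a mean of at least 50 CPM, 34.6% were called lower and 15.5% higher, with a median of -0.19. Atp5b and Atp5a1, the catalytic core of ATP synthase, lay at 786 and 842 CPM against 1266 and 1412 CPM and at 435 and 370.1 CPM against 719.6 and 743 CPM. Uqcrc1, of complex III, lay at 181 and 162 CPM against 414 and 377 CPM. All 3 fell. Cox4i1, of cytochrome oxidase, lay at 407 and 448 CPM against 371 and 399 CPM and was not called. The number called lower was 17 without IgG replicate 1 and with DESeq2, and 15 with the even density subtracted from IgG.

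Immediate early genes, which switch on within minutes of a stimulus, were called lower at 17 of 24 and higher at 1, with a median of -0.92. Egr1 lay at 2411 and 2295 CPM in IgG and 4080 and 3888 CPM in Input, Fos at 1336 and 1369 CPM against 3075 and 3070 CPM and Junb at 1098 and 1065 CPM against 2892 and 2354 CPM, with no overlap between groups. Their log2 fold changes were -0.82 ± 0.12, -1.24 ± 0.12 and -1.34 ± 0.13. Hspa1a, an inducible chaperone, lay at 227 and 202 CPM in IgG and 1663 and 1574 CPM in Input and had one of the 10 largest falls at 20 CPM or more (-2.97 ± 0.14, edgeR adjusted p = 9.2e-20). The others of those 10 were Scd2, Myog, Mcm2, Tmem9, Cdh15, Capn6, Rhoh, Ccnd1 and Coasy. Scd2, a fatty acid desaturase, lay at 4.67 and 6.62 CPM in IgG and 73.4 and 94.1 CPM in Input, and Ccnd1, the cyclin of G1, at 32.7 and 26.5 CPM in IgG and 217 and 223 CPM in Input.

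Genes of the satellite cell itself were called lower at 17 of 26 and higher at 1, with a median of -0.80. Cdh15, the cadherin that joins satellite cells to the fibre, lay at 81.7 and 74.3 CPM in IgG and 684 and 579.9 CPM in Input, a log2 fold change of -3.08 ± 0.17. Pax7 lay at 95.0 and 81.7 CPM in IgG, below both of its Input values, with -1.98 ± 0.17 (edgeR adjusted p = 3.5e-12). Chodl and Vcam1, both surface proteins of these cells, lay at 623 and 661 CPM against 1382 and 1661 CPM and at 750.4 and 804 CPM against 1254 and 1421 CPM.

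The single rise of that list was Myod1, the myogenic activator, at 1977 and 1930 CPM in IgG and 1058 and 906 CPM in Input, with a log2 fold change of 0.93 ± 0.13 (edgeR adjusted p = 2.5e-07). Myf5, its close relative, lay at 532 and 545 CPM in IgG, between its Input values of 489 and 768 CPM, and was called, as lower, only without Input replicate 1 (-0.57) and without the filter on low counts (-0.56). The changes in this list compare RNA recovered on beads with input RNA and are not counts of cells. Whether the libraries also differed in cell content or in RNA per cell cannot be told from bulk RNA.

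**Figure D5:**
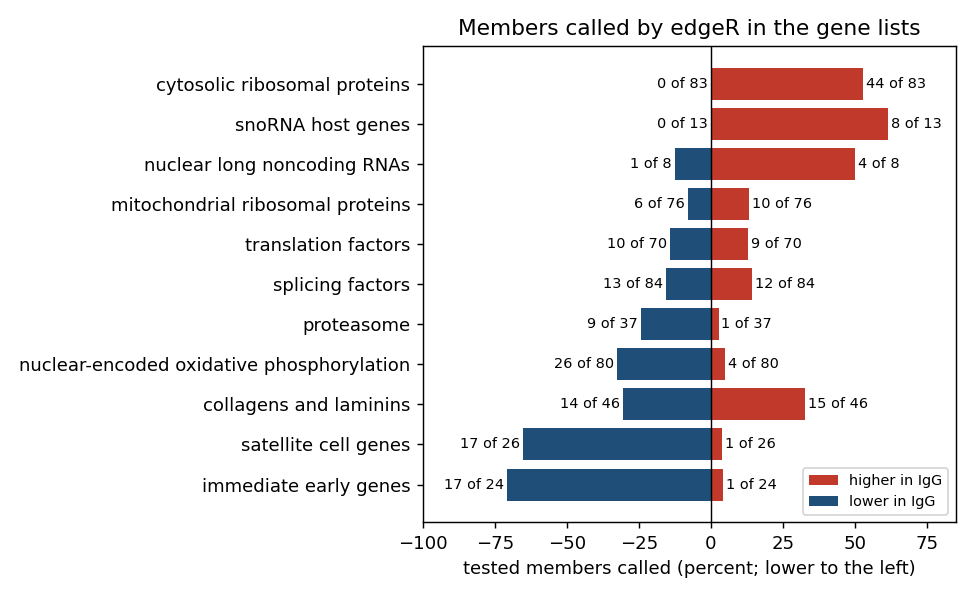
Percent of tested members called higher (right) and lower (left) in IgG for 11 gene lists, with counts beside each bar. Ribosomal protein genes were called higher at 44 of 83 and lower at 0, and immediate early genes lower at 17 of 24.

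Markers of other cells of muscle were measured beside these groups. Summed over 3 globin genes of red blood cells, IgG held 69.3 and 75.1 CPM, Input 5.20 and 8.75 CPM and CPEB1 IP 65.9 and 83.2 CPM. Endothelial markers were called higher at 4 of 5 (1 without IgG replicate 2, 2 without Input replicate 1 and 1 without Input replicate 2), with sums of 139 and 174 CPM against 122 and 122 CPM. Fibro-adipogenic markers were called higher at 4 of 5 and lower at 1, with sums of 467 and 446 CPM against 469 and 519.5 CPM. The higher ones numbered 2 when IgG replicate 1 or either Input library was left out. Dcn, a matrix proteoglycan, lay at 229.6 and 204 CPM against 72.8 and 75.4 CPM and Dpt at 189.9 and 201 CPM against 381 and 432 CPM. Immune markers summed to 73.9 and 71.4 CPM against 38.2 and 34.997 CPM, and Schwann cell markers to 94.2 and 66.2 CPM against 41.3 and 44.4 CPM. Smooth muscle and pericyte markers were called lower at 2 of 4, with sums of 279 and 284 CPM against 686 and 796 CPM. DESeq2 called 0 endothelial markers and 1 fibro-adipogenic marker higher. The part of these cell markers in the other results was not tested.

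Collagens and laminins were split, with 15 of 46 (32.6%) called higher and 14 (30.4%) lower, beside 21.4% and 19.4% of all tested genes. Col3a1, a fibrillar collagen, lay at 557 and 526 CPM in IgG and 1888 and 1782 CPM in Input and fell, as did Col4a1, a basement membrane collagen, at 437 and 390.0 CPM in IgG and 721 and 616 CPM in Input. The members called higher had a median Input level of 1.67 CPM, against 26.6 CPM over all 46 tested.

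Base composition moved with the change as well. Over all tested genes the median log2 fold change was 0.30 among the 2594 genes lowest in GC content and -0.18 among the 2594 highest. Among protein-coding genes with at least 50 CPM it was -0.0023 and -0.40, and the longest 794 of them by exon length had a median of 0.06 against -0.19 over all 3971. These features go together with level and with each other, and their part in the gene lists was not tested.

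The CPEB1 IP libraries were read against IgG in a separate fit that shares the IgG libraries. Of 12124 tested genes 1779 (14.7%) were called higher in CPEB1 IP and 2265 (18.7%) lower. All 13 satellite-like genes, 253 of 306 tested TEC genes and 76 of 79 tested receptor genes were lower in CPEB1 IP. A gene can pass the filter on low counts of this fit through IgG alone, so these counts are a description. Rplp0, at 3993 and 3434 CPM in CPEB1 IP, and Pax7, at 85.01 and 90.7 CPM, were not called between CPEB1 IP and IgG. Cpeb1 mRNA lay at 184 and 212 CPM in CPEB1 IP, higher than in IgG by a log2 fold change of 1.09 ± 0.12 (edgeR adjusted p = 2.5e-06).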

How the data were processed

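Reads of the 6 libraries were mapped to mm10 with HISAT and counted on genes by featureCounts, according to the methods, and the authors deposited these raw counts without normalization. The authors also deposited FPKM, used here only for the library total behind them. Gene symbols were matched to GENCODE M21 on the same assembly, 54380 by symbol and 873 by position.

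IgG and Input counts were joined by gene and compared, 2 libraries a group, in edgeR 4.0.16 under R 4.3.3 (filterByExpr, TMM scaling, the quasi-likelihood test, Benjamini-Hochberg adjusted p under 0.05). The study's own test was DESeq2, tried here as an alternative (version 1.42.0). Python 3.11.15, pandas 2.3.3, numpy 2.4.6, scipy 1.17.1 and matplotlib 3.10.9 did the rest. The fit was tested on simulated data, where 200 genes were changed, as many up as down. It recovered 70 (35%) at a log2 change of 1 and 160 (80%) at a log2 change of 2. Of the unchanged genes it called 3 and 14. A gene that was not called may therefore still differ. Far more genes were called in the data than were changed in the simulation, so the simulated rates need not hold for the data. CPM are plain, and TMM enters the fits only. Shares have exact Clopper-Pearson 95% intervals.

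The rule for named genes took the 5 highest in each group, the 10 largest called changes each way with at least 20 CPM, the 2 to 4 most abundant members of a list, the 5 highest without an Input count, and 10 fixed genes. Miat, Hmox1, Akap13 and Atp2b1 were named after their values were seen. Members, lists and tests were chosen with earlier results of these data known. Alternatives were DESeq2, other scalings, no filter, all 6 libraries, a replicate block, a fold minimum and leaving out each library. Counts of list or class members called under an alternative cover the members tested in the main fit. Leaving out the satellite-like genes and subtracting an even density from IgG counts were added after the data were seen.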

Additional observations from a re-analysis of the deposited data

How the results depend on the processing

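Genes called higher in IgG (2772) numbered 1056 with DESeq2, 1757 with the even density subtracted, and from 1354 to 2170 with 1 library left out (1354 without IgG replicate 1, 1355 without IgG replicate 2, 1838 without Input replicate 2). Genes called lower (2515) numbered 1560 with DESeq2, 1389 at a fold change of at least 2, and from 1709 to 2400 with 1 library left out. The other settings kept both counts within 1.5 times, although without the low-count filter 1386 of the 2772 higher calls were shared. With DESeq2, 760 were shared. The causes were not tested. Genes with counts in both IgG libraries and none in Input fell from 7076 to 1705 and 101 at minimums of 3 and 10 counts. The 13 satellite-like genes stayed called higher under each setting in which lists were counted. With the even density subtracted, receptor genes called higher went from 88 to 12, TEC genes from 185 to 96 and ribosomal protein genes from 44 to 65. With the replicate number as a block (replicate block) 2777 genes were higher and 2681 lower. The labels do not say that equal numbers mark pairs, and deviations of same-numbered IgG and Input libraries had a correlation of 0.0274 across genes.

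Some log2 fold changes, of single genes or medians of groups, changed sign, and not all of them were near 0. In the main fit the median was 0.70 for replication-dependent histone and 0.37 for genes without an annotation match. With plain library sizes the reversed values were 0.066 for protein-coding genes, 0.065 for protein-coding genes other than satellite-like, 0.0085 for Eef1a1, 0.029 for mt-Rnr2. With TMM over protein-coding genes they were 0.029 for protein-coding genes, 0.027 for protein-coding genes other than satellite-like. With even background subtracted they were -0.34 for replication-dependent histone, 0.082 for Meg3, 0.11 for Rpl4, 0.14 for Eef1a1, 0.16 for mt-Rnr2. With no filter on low counts they were -0.25 for Gpx3, -0.27 for Sdc4, -0.22 for Cpeb1, -0.18 for Cox4i1. With DESeq2 they were -0.12 for Gpx3, -0.14 for Sdc4, -0.093 for Cpeb1, -0.048 for Cox4i1. With satellite-like genes left out they were -0.00075 for Sdc4. With protein-coding genes alone they were -0.19 for genes of least exon length, -0.015 for genes of fewest exons. With 1 library left out they ranged from -0.35 to 0.76 for replication-dependent histone, from -0.43 to 0.48 for genes without an annotation match, from -0.32 to 0.13 for collagens and laminins, from -0.043 to 0.045 for Gpx3, from -0.052 to 0.064 for Sdc4, from -0.59 to 0.49 for Meg3, from -0.21 to 0.024 for Eef1a1, from -0.57 to 0.087 for Myf5, from -0.37 to 0.053 for Ptprd, from -0.093 to 0.20 for Cpeb1, from -0.24 to 0.11 for mt-Rnr2, from -0.19 to 1.13 for Gm47585, from -0.0071 to 0.15 for Cox4i1.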
